A study of Homo sapiens with 2 samples.

Results

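The minus strand of a 100 kb window in chromosome band 17q25 (hg19, positions 79800001 to 79900000 of chromosome 17) held 95 of the 72794 sites listed for RNA crosslinked to SOX2 in HEK293T cells. All listed sites on that strand that lay wholly inside the window were taken. Both totals add the lists of the replicates, so a place found in both lists is counted in each. Replicate 1 contributed 16 of its 16964 sites and replicate 2 contributed 79 of its 55830. The window had been chosen by its number of minus-strand sites in both lists, so that number and the strand are given as descriptions and support nothing. The 7 minus-strand genes named for it are P4HB, ARHGDIA, ALYREF, PCYT2, SIRT7, MAFG and PYCR1.

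The data came from PAR-CLIP, in which cells incorporate a photoreactive uridine, long-wave ultraviolet light links the RNA to bound protein, and the RNA pieces recovered with that protein are sequenced. Both libraries belonged to 1 group, HEK293T cells transfected with a plasmid for FLAG-tagged SOX2. HEK293T cells derive from human embryonic kidney and express the SV40 large T antigen, and the protein measured was the transfected, tagged form. Per the labels' protocols, both had 0.2 mM 4-thiouridine for 16 hours, irradiation with 0.4 J/cm2 at 365 nm, FLAG immunoprecipitation and RNase T1. The labels call the libraries independent experiments. No untagged, untransfected or RNA abundance library is used here, so more bound SOX2 and more RNA of a gene cannot be told apart in any value below.

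SOX2 is a transcription factor whose HMG box bends DNA, and it is one of the factors that reprogram somatic cells to pluripotency. The series deals with a presumed RNA-binding motif in SOX2, and the site lists addressed where SOX2 touches RNA. A transcription factor can meet RNA while the RNA is still being made at its gene, and such contacts may fall on introns as well as exons.

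Of the genes named for the window, P4HB encodes protein disulfide isomerase, which forms disulfide bonds in the endoplasmic reticulum and is the beta subunit of collagen prolyl 4-hydroxylase. ALYREF encodes an adaptor that binds mRNA and hands it to the nuclear export machinery. PCYT2 encodes the enzyme that makes CDP-ethanolamine for phosphatidylethanolamine synthesis. SIRT7 encodes a nucleolar NAD-dependent deacylase linked to ribosomal RNA transcription. MAFG encodes a small MAF protein, a bZIP factor that pairs with NRF2 and related partners. PYCR1 encodes the mitochondrial enzyme of the last step of proline synthesis. RefSeq's gene table for GRCh38.p14 held all 7 on the minus strand, in that order from low to high positions. Among the 12 genes from P4HB to PYCR1 in that table, the other 5 were on the plus strand: ANAPC11 (a subunit of the anaphase-promoting complex), NPB (a neuropeptide), MAFG-AS1, MILIP and LOC124904086, of which the last 3 are long noncoding RNAs. The site lists use hg19 while the table is on GRCh38, and coordinates were not converted. No site was therefore given to a gene, exon or intron, and no site sequence is shown. Sites are reported by hg19 position, counted from 1, with the lower edge on the P4HB side and the upper edge on the PYCR1 side. Transcripts of the minus strand run from high to low positions.

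Each site carries a deposited score, a whole number of at least 5. Its meaning is not stated in the labels or the files, although it has the look of a read number. The list totals were 5365592 in replicate 1 and 5192778 in replicate 2, and read depth is unknown. The strongest site held 1560568 of the total in replicate 1 and 702704 in replicate 2, so shares of list score depend on such sites. In the window, the minus strand took 0.0348% of the score and 0.0943% of the sites in replicate 1. In replicate 2 it took 0.0668% of the score and 0.142% of the sites. Its 79 sites in replicate 2 were 4.94-fold the 16 of replicate 1, where the whole lists differed 3.29-fold. Among scores of at least 50 the window had 9 sites in replicate 1 and 18 in replicate 2. That is a ratio of 2.00, beside 2.03 over the lists (4854 and 9843 sites). The limit of 50 was not among the planned comparisons, and the ratio in the window rests on few sites.

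On the minus strand the scores of replicate 1 ran from 12 to 1016 with a median of 54.5 and quartiles of 33.5 and 67.0. Those of replicate 2 ran from 5 to 340, with a median of 26 and quartiles of 17 and 45.5. The medians of the whole lists were 26 in replicate 1 and 19 in replicate 2. Of the window's replicate 1 sites, 14 of 16 (87.5%, 95% Wilson interval 64.0 to 96.5) had a score at or above the median of their list, beside 51.4% of all its sites. In replicate 2 the figures were 54 of 79 (68.4%, 57.5 to 77.6) and 52.1%. The sites of the window thus sat more often in the upper part of each list than the list as a whole. No test was run on this, because sites on the same RNA are not independent and 2 libraries of 1 group allow none over samples. Intervals cover counting error over sites only.

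**Figure D1:**
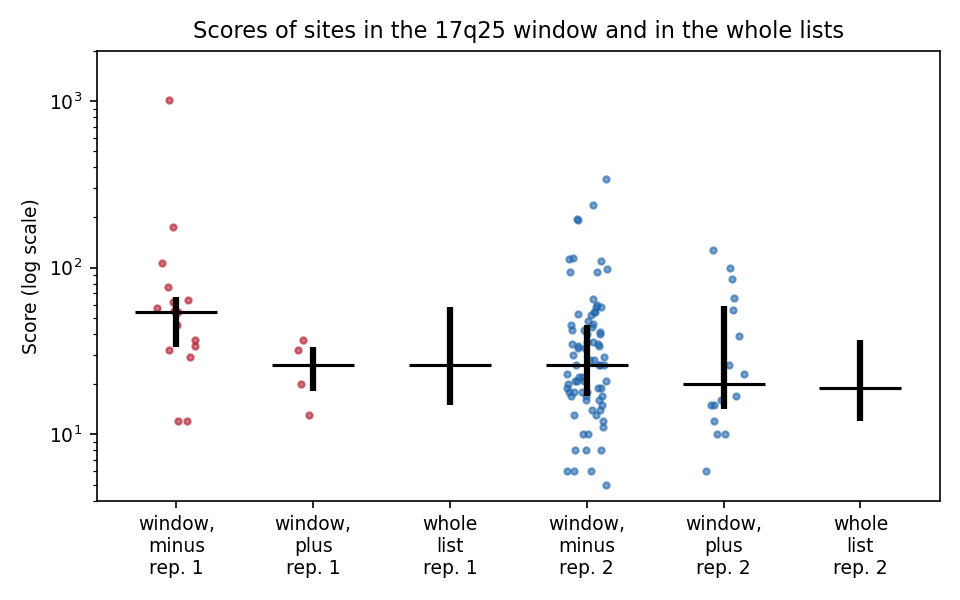
Scores on a log axis for the sites of the window on the minus and the plus strand (points, 1 per site), with the median (horizontal line) and quartiles (thick vertical line) of each set and of the whole list, for both replicates. The minus-strand medians, 54.5 and 26, lie above the list medians of 26 and 19, and 1 replicate 1 site stands far above the rest at 1016.

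A single site took more of the replicate 1 score than the 15 others together. The minus-strand site at 79826511 to 79826524, 14 nt long, scored 1016, ranked 268 in its list and took 54.4% of the score of the window's minus strand. The next sites of replicate 1 were far lower, with 176 at 79837436 to 79837452 and 107 at 79816708 to 79816722. In replicate 2 the strongest site, at 79801694 to 79801713, scored 340 and took 9.80%. The mean share of the strongest site was 32.1% ± 31.5 (SD, n = 2), a spread between the replicates about as large as the mean. Without the strongest site of each, the minus-strand score summed to 852 in replicate 1 and 3129 in replicate 2, a ratio of 3.67 in place of 1.86. With all sites kept, the score of the whole lists had a ratio of 0.968, replicate 2 over replicate 1.

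The strongest sites of the window were mostly not the same in both replicates. The replicate 1 site with a score of 1016 had no overlapping partner. The nearest replicate 2 site, at 79826246 to 79826261, lay 264 nt away between midpoints and was the second strongest of its strand with a score of 236. In the whole list, 163 of the 268 replicate 1 sites with scores of at least 1000 had a partner (60.8%). Scores of at least 100 were found at 3 of 16 sites in replicate 1, or 18.8% beside 14.8% of the list, and at 7 of 79 in replicate 2, or 8.86% beside 7.34%. Of the 3 in replicate 1, 0 had a partner, beside 49.1% of such sites over the list. Of the 7 in replicate 2, 1 had a partner, beside 28.9%. These score limits were chosen after the values were seen, and with so few sites the shares are loose.

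Exact overlap between replicates was found at 3 places of the minus strand. The first pair had the same edges in both lists, 79803174 to 79803187, with a score of 34 in replicate 1 and 33 in replicate 2. The next lay at 79842432 to 79842446 in replicate 1, with a score of 54, and at 79842424 to 79842440 in replicate 2, with a score of 28, and the sites had 9 nt in common. In the last, the replicate 1 site spanned 79879153 to 79879171 and scored 64, the replicate 2 site spanned 79879150 to 79879167 and scored 114, and they had 15 nt in common. The pairs scored from 28 to 114, and they were spread over the lower end, the middle and the upper part of the window.

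These pairs made up 18.8% of the replicate 1 sites (3 of 16, interval 6.59 to 43.0), beside 21.3% over the whole list. From replicate 2 they made up 3.80% (3 of 79, interval 1.30 to 10.6), beside 6.50%. Both list values lay inside the intervals, which cover counting error over sites only, and no difference was tested. Overlap can also depend on how dense the sites are, which is what the window was chosen for. The list shares are therefore not a like baseline, and these values are descriptions. The shared sites carried 8.14% of the minus-strand score of replicate 1 and 5.05% of that of replicate 2.

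Although few sites coincided, the replicates placed their sites close to each other. Of the replicate 1 sites, 15 of 16 (93.8%, interval 71.7 to 98.9) had a same-strand site of replicate 2 at a distance of at most 1 kb, beside 53.1% of the list. Within 200 nt there were 11 of 16 (68.8%), beside 39.2%. The median distance to the nearest replicate 2 site was 97.8 nt, and the largest was 2706 nt. From replicate 2, 51 of 79 sites (64.6%, interval 53.6 to 74.2) had a replicate 1 site within 1 kb, beside 29.3%, and 15 of 79 (19.0%) had one within 200 nt, beside 15.7%. Nearness depends on how dense the sites are, which is what the window was chosen for, so these shares are no support for agreement of their own.

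The opposite strand gave other distances. Of the replicate 1 minus-strand sites, 0 of 16 had a plus-strand site of replicate 2 within 1 kb (upper bound of the interval 19.4%), beside 3.96% of the list. Of the replicate 2 minus-strand sites, 7 of 79 (8.86%, interval 4.36 to 17.2) had a replicate 1 site that near on the plus strand, beside 1.69%. The median distance to the nearest site of the other replicate on the opposite strand was 7504 nt for replicate 1 sites. The window was chosen for its minus-strand sites, and its plus strand offered fewer sites to lie near. The contrast between the strands is therefore a description only.

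**Figure D2:**
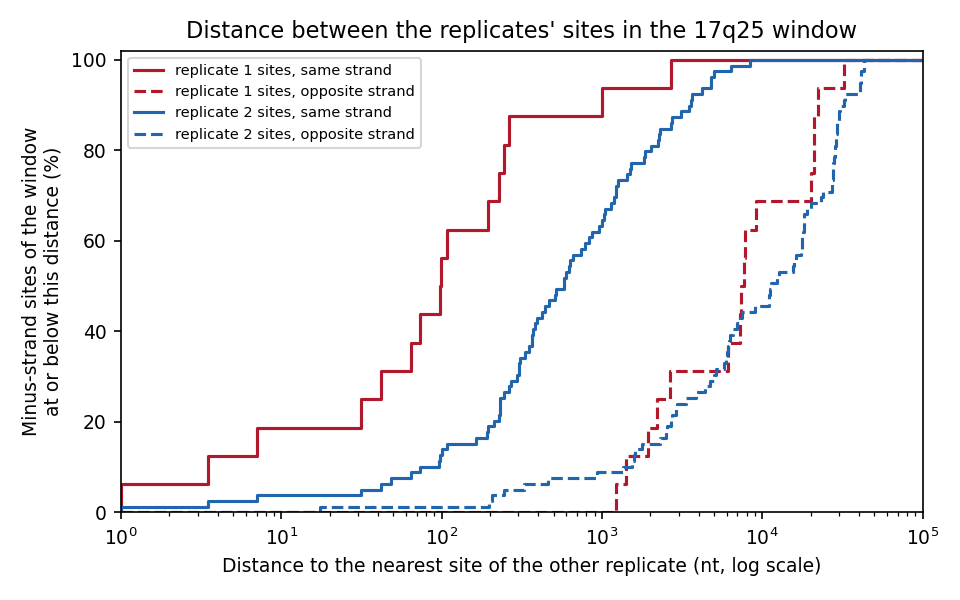
Cumulative share of the window's minus-strand sites (in percent) by the distance to the nearest site of the other replicate (nt between midpoints, log axis, distances under 1 nt drawn at 1), on the same strand (solid) and on the opposite strand (dashed). The same-strand curves lie to the left: the median for replicate 1 is 97.8 nt on the same strand and 7504 nt on the opposite one. This order is a description only, because the window was chosen for its minus-strand sites.

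Along the minus strand, the sites of both lists fell into 15 groups when sites separated by gaps of at most 2 kb were joined. The groups are numbered from the lower edge. They covered 26.4 kb of the window together. Both replicates had sites in 7 groups, replicate 1 alone in 1 and replicate 2 alone in 7. The groups that held a replicate 1 site contained 67 of the 79 replicate 2 sites (84.8%). The groups were built from both lists together, and a group with more sites holds a replicate 1 site more easily. This share is therefore a description and no support for agreement. The 12 other replicate 2 sites were scattered over groups of at most 2 sites.

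The map of scores along the window shows dense stretches parted by empty ones of several kilobases. The widest gap between groups, 9194 nt, lay between groups 4 and 5. Within replicate 1 the median gap from a site to the next was 4713 nt, and 0 of 15 gaps were of at most 100 nt. Within replicate 2 the median gap was 302.5 nt, and 16 of 78 were of at most 100 nt. Gaps shorten as more sites are listed, and no share over the whole lists was taken, so these values are descriptions.

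**Figure D3:**
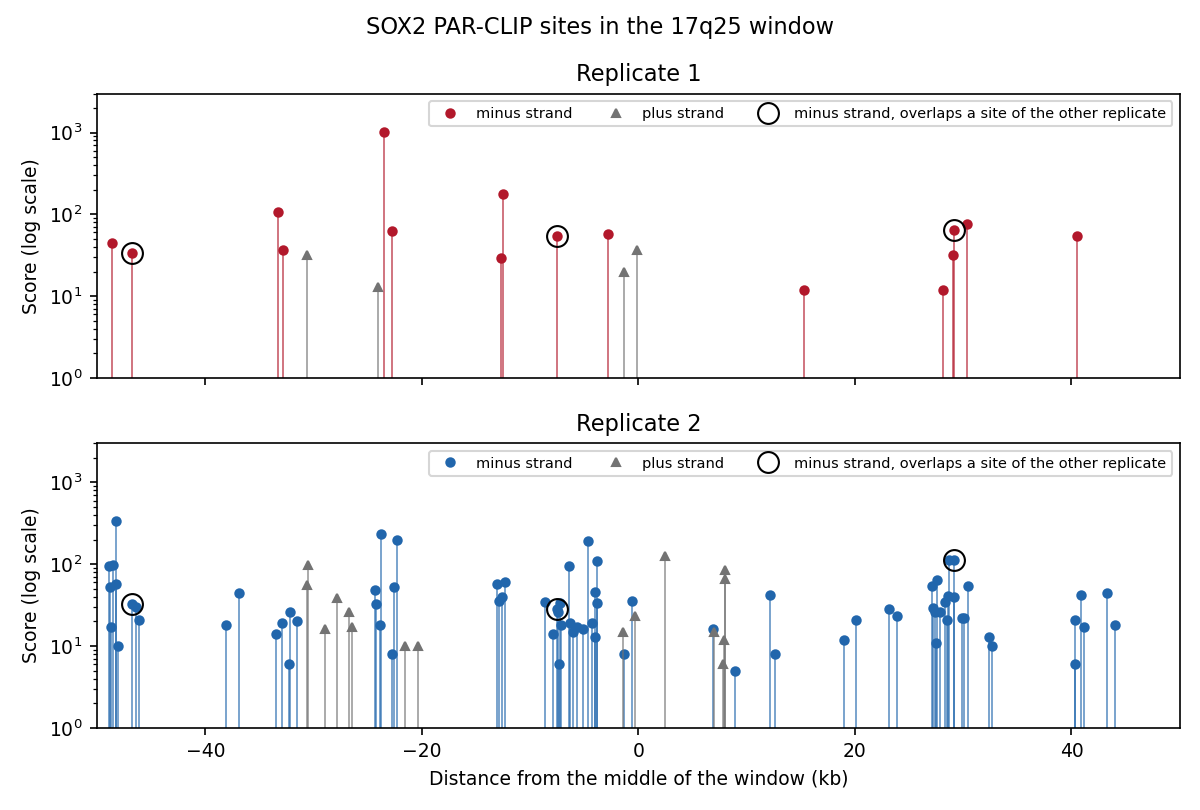
Score (log axis) of every site of the window by its distance in kb from the middle of the window, with minus-strand sites as circles, plus-strand sites as grey triangles and the 3 minus-strand pairs that overlap between replicates ringed. The stretches where replicate 1 (upper panel, 16 minus-strand sites) has sites are mostly those where replicate 2 (lower panel, 79 sites) has many. This is a description, because the window was chosen for its number of sites.

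Group 6 held the most sites. It ran from 79841393 to 79849456, over 8.06 kb, and held 2 sites of replicate 1 and 20 of replicate 2. Its replicate 1 sites, at 79842432 to 79842446 and at 79847160 to 79847173, scored 54 and 57, and the second lay 996 nt from the nearest replicate 2 site. In replicate 2 the scores ran from 6 to 194 with a median of 22.5. The strongest of these was at 79845332 to 79845360 with 194, followed by 110 at 79846133 to 79846148 and 94 at 79843568 to 79843585. The group took 5.94% of the minus-strand score in replicate 1 and 22.5% in replicate 2.

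Group 13, near the upper edge, came next. It ran from 79877119 to 79882627, over 5.51 kb, and held 4 sites of replicate 1 and 17 of replicate 2. The replicate 1 sites scored 12, 32, 64 and 76, the last at 79880383 to 79880397. Its replicate 2 scores ran from 10 to 114 with a median of 29, led by the shared site of 114 and by 113 at 79878712 to 79878726. This group contributed 9.85% of the replicate 1 score and 20.1% of the replicate 2 score. In number of sites the replicates gave it nearly the same weight, with 25% of the sites in replicate 1 and 21.5% in replicate 2.

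Group 1 lay at the lower edge, from 79801117 to 79803853. Replicate 1 had a site of 45 at 79801328 to 79801343 and the shared site of 34 there. Replicate 2 had 10 sites, with scores from 10 to 340 and a median of 43. Besides the site of 340, those at 79801409 to 79801453 and at 79801117 to 79801130 scored 98 and 94. The first of these measured 45 nt and was the longest minus-strand site of the window in either list. The group took 4.23% of the score in replicate 1 and 21.7% in replicate 2, over only 2.74 kb.

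Group 4, from 79825673 to 79827707, contained the site of 1016. Replicate 1 had a further site of 62 at 79827226 to 79827241, which lay 41.5 nt from a weak replicate 2 site of 8. Replicate 2 had 7 sites with scores from 8 to 236, including 197 at 79827688 to 79827707. None of them overlapped a replicate 1 site, although 2 of the 3 strongest replicate 2 sites of the window were in this group. Its share of the score was 57.7% in replicate 1 and 17.1% in replicate 2.

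Groups 3 and 5 were smaller. Group 3, from 79816482 to 79818449, had replicate 1 sites of 107 and 37 and 5 replicate 2 sites from 6 to 26, so here the higher scores were in replicate 1. Group 5, from 79836902 to 79837682, had replicate 1 sites of 29 and 176 and 4 replicate 2 sites from 36 to 60. The site of 176 lay 64.5 nt from the nearest replicate 2 site. In both groups the score sums of the shorter list were the higher, with 144 against 85 in group 3 and 205 against 194 in group 5, for replicate 1 against replicate 2.

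Group 14 started at 79890310 and had a single replicate 1 site of 55 at 79890537 to 79890561. This site was 25 nt long, the longest of replicate 1 here. Replicate 2 had 4 sites in it, from 6 to 42. Group 10 was the group without replicate 2, a replicate 1 site of 12 at 79865298 to 79865312. The nearest replicate 2 site lay 2706 nt away.

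The groups seen in replicate 2 alone had at most 2 sites each, with scores from 5 to 45. Group 2 had its stronger site, of 45, at 79813120 to 79813133. Group 15, the last before the upper edge, was led by a site of 44 at 79893258 to 79893288, and group 9 by a site of 42 at 79862186 to 79862199. Groups 11 and 12 had their strongest sites at 79870084 to 79870098 with 21 and at 79873104 to 79873120 with 28. Groups 7 and 8 were single sites of 16 at 79856861 to 79856877 and of 5 at 79858911 to 79858927. The stretch from group 7 to group 12 thus held few sites in both lists.

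**Figure D4:**
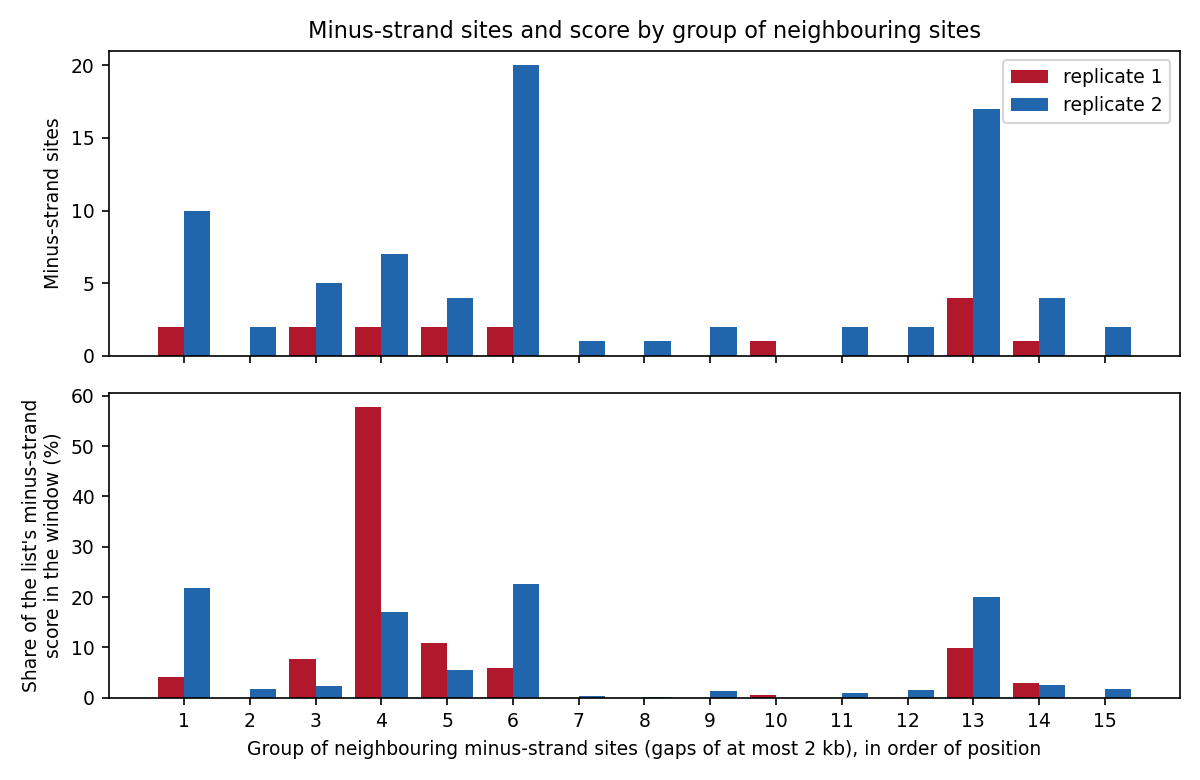
Number of minus-strand sites (upper panel) and share of the minus-strand score of the window in percent (lower panel) for each of the 15 groups of neighbouring sites, in order of position, in replicate 1 and replicate 2. Groups 6 and 13 hold the most sites in replicate 2, with 20 and 17, and group 4 takes 57.7% of the replicate 1 score.

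Sites of the window were short. On the minus strand they measured 14 to 25 nt in replicate 1, with a median of 15, and 14 to 45 nt in replicate 2, with a median of 17. The list medians were 16 and 17 nt. In replicate 2, 9 of 79 minus-strand sites (11.4%) were at least 30 nt long, beside 2.87% of the list, and in replicate 1 none of the 16 was, beside 0.802%. That length was chosen after the values were seen. Scores below 10 were found at 7 of 79 sites in replicate 2 (8.86%, beside 7.14% of the list) and at 0 of 16 in replicate 1 (beside 0.660%). The site in group 8 was the weakest.

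Far fewer sites lay on the plus strand of the window: replicate 1 listed 4 there and replicate 2 listed 16. For the minus strand this left 80.0% of the window's sites in replicate 1 and 83.2% in replicate 2, with a mean of 81.6% ± 2.23 (SD, n = 2). By score the minus strand had 94.8% and 84.8% of the window's score. The plus-strand sites of replicate 1 scored 32 at 79819358 to 79819373, 13 at 79825921 to 79825934, 20 at 79848676 to 79848690 and 37 at 79849884 to 79849903. The strongest of replicate 2 scored 127 at 79852433 to 79852450, 99 at 79819460 to 79819481 and 86 at 79858021 to 79858046. The plus-strand medians, 26 in replicate 1 and 20 in replicate 2, were at or near those of the lists.

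A single plus-strand site of each list overlapped the other list. The replicate 1 site of 32 and a replicate 2 site of 56 at 79819367 to 79819395 had 7 nt in common. Plus-strand sites lay in the empty stretches as well as beside the minus-strand groups: groups 4 and 6 each had 1 plus-strand site of replicate 1 within their bounds, and group 6 also had 1 of replicate 2. The only overlap of opposite strands in the window joined a weak minus-strand site of replicate 2, at 79848651 to 79848680 with a score of 8, to the plus-strand site of 20 in replicate 1.

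The edges of the window did not cut through a group. The nearest minus-strand site below it ended 13011 nt from the edge in replicate 1, with a score of 57, and 10215 nt from it in replicate 2, with a score of 10. Above it, both lists had a minus-strand site ending at 79905850, which lay 5835 nt from the edge with a score of 34 in replicate 1 and 5836 nt from it with a score of 22 in replicate 2. The first sites inside scored 45 and 94, and the last inside scored 55 and 18.

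By mean rank of site number in both lists, the window ranked 3 among all 100 kb windows taken on each strand of the nuclear chromosomes. Windows with a site held a median of 1 in replicate 1 and 3 in replicate 2. Of these windows, 5 had more sites than the 16 found here in replicate 1 and 2 had more than the 79 in replicate 2. The 3 others nearest to the top were the plus strand of chromosome 16 from 2800001 to 2900000, the plus strand of chromosome 16 from 30700001 to 30800000 and the plus strand of chromosome 1 from 32600001 to 32700000. On their opposite strands those windows held 0, 2 and 4 sites in replicate 1, beside 4 on the plus strand here. In replicate 2 they held 4, 3 and 6, beside 16. Shared sites made up 3 of 16 here, against 10 of 19, 5 of 18 and 5 of 17 in those windows for replicate 1. In replicate 2 they made up 3 of 79 here, against 10 of 79, 5 of 78 and 5 of 61. The window had the lowest share of the 4 in both lists, but the intervals overlapped those of the other windows in every pair and no difference was tested.

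The median score of its replicate 1 sites, 54.5, lay between the 93 of the first chromosome 16 window and the 52 and 24 of the others. In replicate 2 its median of 26 was below the 46, 32 and 42 of the other windows. The strongest site took 54.4% of the score in replicate 1 here, against 26.4%, 74.8% and 28.3%. In replicate 2 it took 9.80% here, against 6.06%, 31.7% and 9.04%. A dominant site was thus also present in the second chromosome 16 window, where its share was the largest of these windows in both lists. The share of sites within 1 kb of a site of the other replicate was 64.6% in replicate 2 here, against 77.2%, 35.9% and 63.9%.

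**Figure D5:**
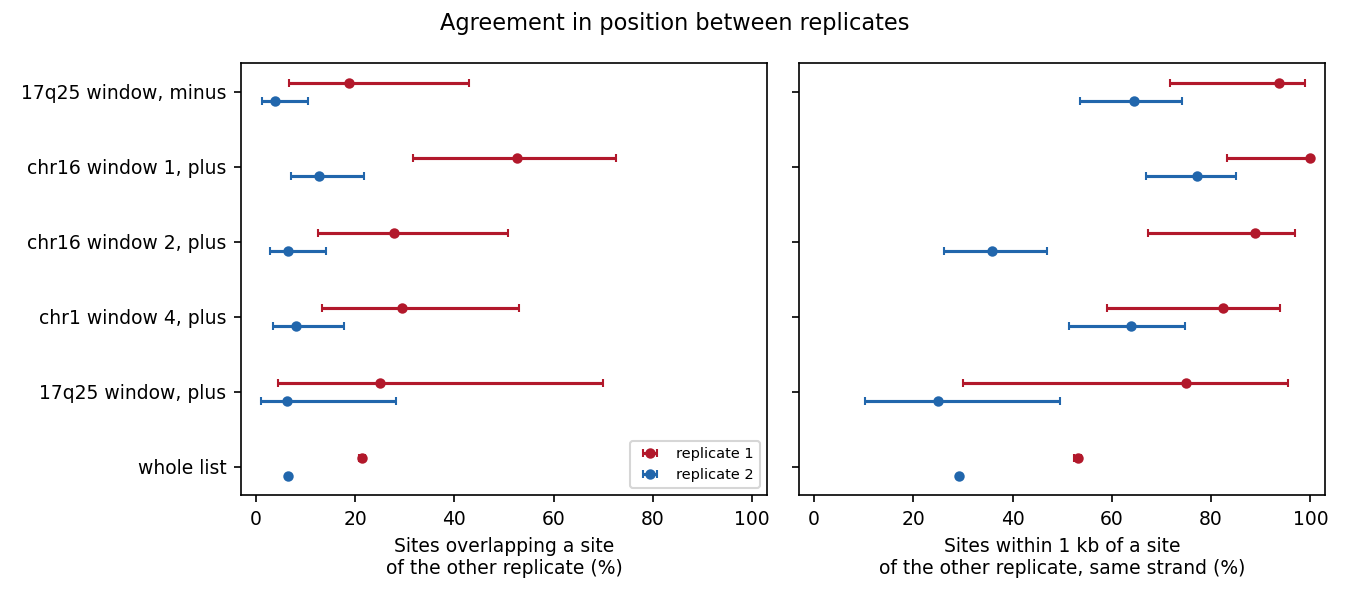
Share of sites in percent that overlap a site of the other replicate (left) or lie within 1 kb of one on the same strand (right), with 95% Wilson intervals. Rows are the minus strand of the window, the 3 other windows best placed by mean rank of site number (numbered by that place), the plus strand of the window and the whole lists. The overlap of the window, 18.8% in replicate 1 and 3.80% in replicate 2, has intervals that include the list values of 21.3% and 6.50%.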

How the data were processed

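SOX2 PAR-CLIP sites were taken from 2 deposited lists, 1 per library, of 6 columns without a header. Tools named in the submitters' processing notes were bcl2fastq and Bowtie 1.1.2, with hg19 as the build. The site caller, its thresholds and the handling of multiply mapped reads are not stated there. The deposited score was used as listed by the authors, with no rescaling. Depth is unknown, and PCR reads without molecular identifiers are not independent molecules.

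Overlap meant at least 1 nt in common on the same strand, and distances ran between midpoints. Python 3.11.15, numpy 2.4.6, pandas 2.3.3, scipy 1.17.1 (95% Wilson intervals) and matplotlib 3.10.9 were used, with the overlap, distance and grouping steps tested on simulated data. The window, its genes and the quantities were chosen with earlier results of these data known. Named sites were all replicate 1 sites of the window, their partners, the 10 strongest minus-strand and 3 strongest plus-strand sites of replicate 2, the strongest of each group, the longest site and those next to the window's edges. Alternatives moved the window by 20 kb, limited the scores, changed the overlap, the distance, the joining gap or the score scale, and left out each replicate. The GRCh38.p14 gene table gave names, strands and order only.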

Additional observations from a re-analysis of the deposited data

How the results depend on the processing

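Of 44 values under alternatives, 33 were classed as the same as the reported value and 11 as moved. Shares of sites shared with or near the other replicate were judged by their intervals and other means by their SD. The numbers of sites and of groups were judged by a fold limit. A change of direction was not checked. With 2 replicates, either value always lies within the SD of their mean, so leaving out a replicate could not move a result judged by SD. The share of sites on the minus strand, 81.6% on average, was 87.3% among scores at or above the list median and 89.8% by score sum. The share of sites near one of the other replicate was 68.8% within 200 nt and 100% within 5 kb in replicate 1, and 100% among scores at or above the list median; in replicate 2 it was 19.0% within 200 nt and 97.5% within 5 kb. The 15 groups became 6 with gaps of up to 5 kb. Leaving out a replicate gave 16 to 79 minus-strand sites around the mean of 47.5, 80.0% to 83.2% on the minus strand, median scores of 26 to 54.5, 9.80% to 54.4% of the score in the strongest site and 9 to 15 groups. The overlap stayed inside its intervals under every alternative run, from 17.6% to 37.5% seen from replicate 1 and from 3.80% to 8.86% seen from replicate 2, the highest with gaps of up to 50 nt. No paired analysis was possible because both libraries belong to 1 group. With 16 sites in replicate 1, intervals are wide, and the unknown depth limits what the weak sites can show.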

Other observations

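The site names give a further value that the comparisons did not use. Each name holds a number that runs in order of position on each of the 50 chromosome strands in both lists, with gaps. What the number counts is not stated in the labels or the files. Over the whole lists the numbers spanned 248010 in replicate 1 and 235514 in replicate 2, a ratio of 0.950, while the numbers that carried a listed site were 16741 and 52377, a ratio of 3.13. On the minus strand of the window they spanned 129 numbers in replicate 1 and 179 in replicate 2, a ratio of 1.39. Of these numbers, 16 (12.4%) carried a listed site in replicate 1 and 70 (39.1%) in replicate 2, beside 6.75% and 22.2% over the lists. Each span in the window runs from its first to its last listed site, so it is not independent of the listed sites.

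In replicate 2, 18 of the 79 minus-strand sites had a number in common with another site, beside 6356 of 55830 over the list. They formed 9 pairs whose members lay 8 to 74 nt apart with a median of 24 nt. In 3 of the pairs the weaker member scored 6, and in the pair with the strongest site of the strand the members scored 58 and 340. None of the 16 replicate 1 sites had a number in common, beside 424 of 16964 over the list. The members of a pair lay close together, so the number of pairs depends on how dense the sites are. The window was chosen for that density, so these counts are descriptions only.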
